A study of Mus musculus with 2 samples.

Results

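The genes described here encode the proteasome, its activators, its inhibitor and the chaperones that build it. They were taken from the array by symbol (Psma to Psmg followed by a digit), a rule that uses no measured value, although this gene family was picked for description with earlier results of these data known. The rule gave 49 genes of the 27472 named on the array, and 47 of them had a probe well above background on both arrays, of 13674 such genes in all. Psma8, a subunit of the testis proteasome, and Psmb11, a subunit of the thymus proteasome, were not well above background on either array, with signals of 6.08 and 6.12 in control and 6.30 and 6.44 in N2ICD. The rule also took Psmc3ip, a cofactor of meiotic recombination that is not itself a proteasome subunit. The overall counts and the group of all Psmc and Psmd genes include it, and the groups by role do not. Leaving it out left the median over all members at 0.14.

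Both samples were tibialis anterior, a shin muscle made up largely of fast fibres, from adult male mice on the C57BL/6 background. The study compared 1 control muscle with 1 muscle from a transgenic mouse carrying N2ICD, the activated form of the receptor Notch2, and asked what Notch2 does to muscle size and fibre type. Cells in which the transgene is expressed, and its promoter, are not given in the sources used here. Each total RNA was labelled with Cy3 and hybridised to its own array of 60-base probes. The submitters state that the experiment was done once. No value below is therefore checked by a replicate or carries a p-value, and effects of genotype cannot be told apart from those of animal, dissection or array. In bulk muscle, fewer cells of a type and less RNA per cell cannot be told apart either.

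The proteasome degrades proteins that carry ubiquitin chains. Its barrel, the 20S core, is built from rings of alpha subunits, which gate the entrance, around rings of beta subunits, of which Psmb5, Psmb6 and Psmb7 cut peptide bonds. The 19S cap binds ubiquitin with its lid and base, removes the chain and threads the protein into the core with a ring of ATPases. In cells that meet interferon, Psmb8, Psmb9 and Psmb10 replace the catalytic subunits and give the immunoproteasome, which makes peptides for display on MHC class I molecules. In skeletal muscle the proteasome removes myofibrillar proteins, and its subunit genes are known to be raised together during wasting.

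Values are log2 differences, N2ICD minus control, of processed signals after each array was scaled to its own 75th percentile. That percentile lay at a signal of 169 in control and 190 in N2ICD, so a gene with equal signals on both arrays has a negative difference. Among probes printed several times, the SD of the difference between spots of 1 probe was 0.05 in the brightest of 4 level groups, 0.08 and 0.13 in the next ones and 0.26 in the dimmest. This SD is spot noise only and holds no spread between animals. The scanner software's own error model was wider, at 0.20 to 0.28 for the difference of a member. Of the 47 measured members, 36 were read by 1 probe and 11 by 2 probes. Pooled over all signal levels, the SD of the difference between probes of 1 gene was 0.25, in 3159 genes with several measured probes. The counts against spot noise below do not include this spread between probes.

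Subunits of the assembled 26S proteasome stood slightly higher in the N2ICD muscle. Of its 31 measured subunits other than the inducible ones, 27 lay above the median difference of all genes, against 50% of all genes and 58.3% of the 3419 genes in the brightest level group, where most subunits lie. Their median difference was 0.15, a 1.11-fold higher level, beside 0.01 for all genes and 0.05 for the brightest level group. The differences ran from -0.10 for Psma6 to 0.62 for Psmc6, with an SD of 0.15 between subunits, against 0.32 between the genes of the brightest level group. More than 2 spot SD above the all-gene median were 20 of the 31 and more than 2 spot SD below it 0, beside 23.0% and 20.4% of all genes, and 37.0% of the brightest level group above it. For larger differences the share was nearer to the background. At least 1.2-fold higher were 7 of the 31, or 22.6%, beside 18.0% of all genes and 15.2% of the brightest level group. On the lower side that fold was reached by 0 subunits, beside 18.6% and 10.9%. No member reached 2-fold, which 2.31% of all genes did in either direction.

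The subunit values moved with the treatment of signal level. On these arrays bright genes as a class lay a little above dim ones, and when that trend was removed by loess the median of the 31 subunits over the all-gene median was 0.10 in place of 0.14, and 0.09 after quantile normalization. Above the all-gene median were 26 of 31 after loess and 27 of 31 after quantile normalization. Those 1.2-fold or more above it went from 7 to 4 and 3 of the 31. Of all genes, 18.9% after loess and 17.8% after quantile normalization were at least 1.2-fold higher, counted from 0. The shares of the subunits were below these. Over all 47 members, 10, or 21.3%, were at least 1.2-fold higher and 4 reached that fold on the lower side. Quantile normalization gave 6 on the higher side, or 12.8%, which is below the 17.8% of all genes under that setting. When spike-in RNA set the scale, all genes moved up by 0.52, so that 81.1% of them passed 1.2-fold on the higher side and 2.1% on the lower, and the members split into 43 and 0. Scaling to the median gave 14 and 3 members, with 24.4% and 13.9% of all genes. Any difference less than 0.52 below 0 turns positive on that spike-in scale, and directions are therefore given relative to the other genes. Differences beyond 2 errors of the scanner model were seen for 5 members, namely Psmc6, Psmb8, Psmg4 and Psmd8 on the high side and Psme1 on the low side, and 19 members exceeded 1 such error. These are 10.6% and 40.4% of the members, beside 16.2% and 42.8% of all genes, so by this measure the members did not stand out from other genes.

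**Figure D1:**
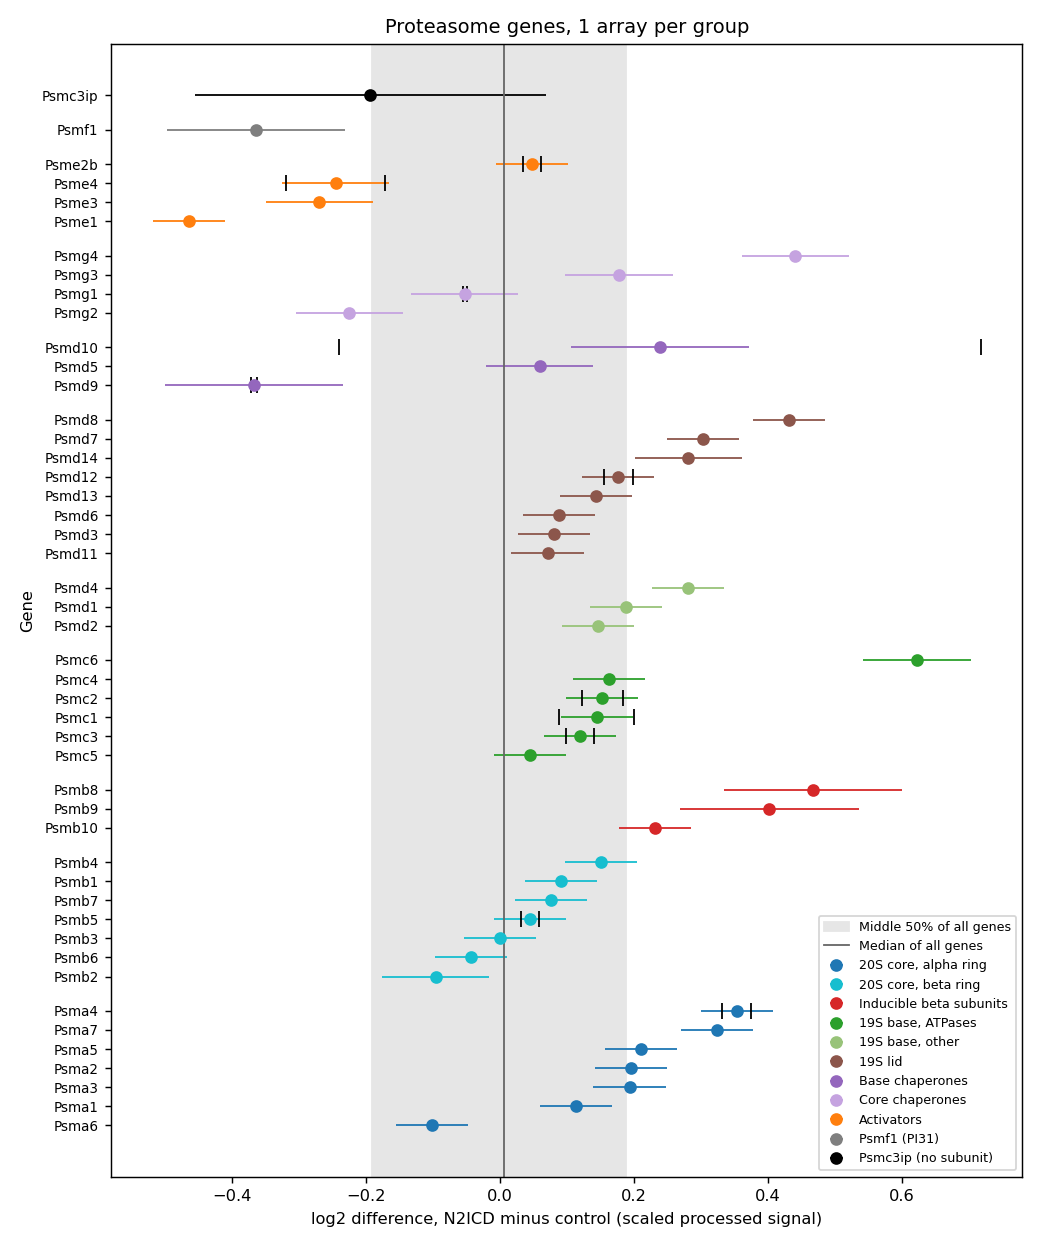
Log2 difference (N2ICD minus control, x axis) of each measured proteasome gene, ordered by role. Points are genes, bars are 1 SD of the spot noise at that signal level, black ticks are the separate probes of genes read by 2 probes, and the grey band holds the middle 50% of all genes, from -0.19 to 0.19. Base, lid and alpha-ring genes lie mostly to the right of the all-gene median, and Psme1, Psme3, Psme4 and Psmf1 lie to the left of it.

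The alpha ring, which opens the core to substrates, had 6 of 7 subunits above the all-gene median and a median of 0.20. Psma4 (probes at chromosome 9, 54802741 to 54804087 and 54804685 to 54805444, build mm9) had a signal of 2343 in the control and 3372 in the N2ICD muscle, the geometric means of both probes, as for every gene with 2 probes. Both probes cross a splice junction, so they read spliced transcript, and they gave 0.37 and 0.33, a mean of 1.28-fold higher. Psma7 had signals of 14253 and 20090, a difference of 0.32. Psma5 lay at 0.21, Psma2 at 0.20, Psma3 at 0.19 and Psma1 at 0.11, each more than 2 spot SD above the all-gene median. Psma6 alone lay below 0: its signals were 9508 and 9988, and the difference of -0.10 was within 2 spot SD of the all-gene median.

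The beta ring lay nearer to 0. The median of its 7 standard subunits was 0.04, none reached 1.2-fold in either direction, and only Psmb4, a structural subunit, at 0.15, exceeded 2 spot SD. Psmb5, the chymotrypsin-like subunit, had geometric mean signals of 24862 in control and 28892 in N2ICD over its 2 probes, which gave 0.06 and 0.03. Psmb6, the caspase-like subunit, had signals of 40202 and 43972 and a difference of -0.04. Psmb7, the trypsin-like subunit, had 8489 and 10082 and a difference of 0.08. The structural subunits Psmb1, Psmb2 and Psmb3 had 0.09, -0.10 and 0.00. The 14 core genes together had a median 0.10 above that of all genes, which was 0.04 both after loess and after quantile normalization.

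All 3 inducible catalytic subunits were higher in the N2ICD muscle, and by more than the standard subunits they replace. Psmb8 (chromosome 17, 34337771 to 34337830), which takes the place of Psmb5, had a signal of 249 in the control and 388 in the N2ICD muscle, a 1.38-fold higher level and a difference of 0.47. Psmb9 (chromosome 17, 34319174 to 34319233), which takes the place of Psmb6, had 146 and 218, a difference of 0.40 or 1.32-fold. Psmb10 (chromosome 8, 108459677 to 108459736), which takes the place of Psmb7, had 2936 and 3885, a difference of 0.23 or 1.17-fold. The difference of Psmb8 exceeded that of Psmb5 by 0.42 and that of Psmb9 exceeded that of Psmb6 by 0.44, with a spot SD of 0.14 for each, and Psmb10 exceeded Psmb7 by 0.16, with a spot SD of 0.08. The 3 genes had a median of 0.40, each was read by 1 measured probe with 1 spot per array, and Psmb8 and Psmb9 belong to a dimmer level group, in which the spot SD of 0.13 is larger. After normexp background correction Psmb8 lay at 0.38 and Psmb9 at 0.28. A second Psmb9 probe, at chromosome 17, 34322762 to 34322821, was on both arrays not well above background, with signals of 5.66 and 5.90, and averaging it in gave 0.15 for the gene.

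**Figure D2:**
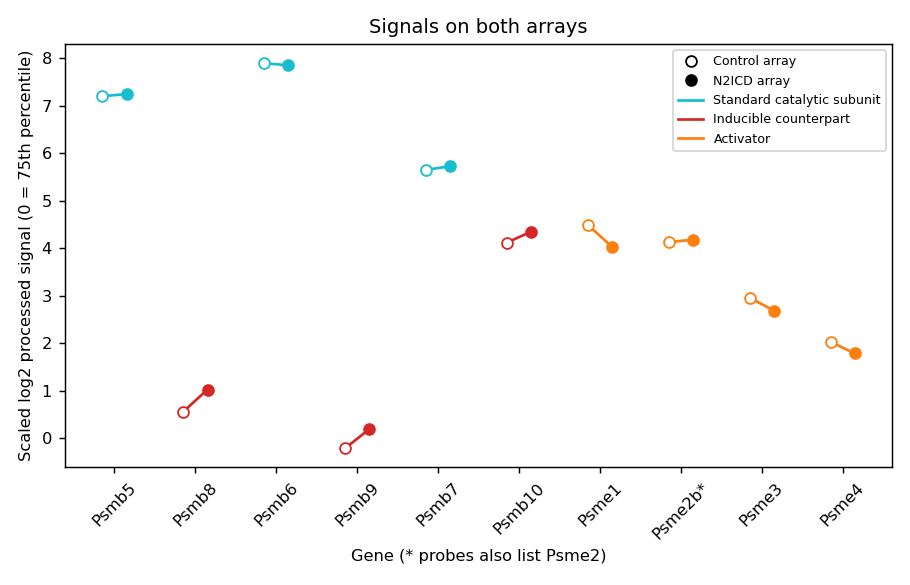
Scaled log2 processed signal (y axis, 0 is the 75th percentile of each array) of the standard catalytic subunits, their inducible counterparts and the activators in control (open) and N2ICD (filled). Lines join the 2 arrays, and heights are not comparable between genes because each probe has its own response. Psmb8, Psmb9 and Psmb10 slope up, Psmb5, Psmb6 and Psmb7 are nearly level, and Psme1, Psme3 and Psme4 slope down, which they do not on the spike-in scale.

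Genes that act with the immunoproteasome in antigen display were mostly higher too. Of 10 genes for MHC class I presentation and the interferon response, 8 were measured. Of these, 7 lay above the all-gene median, with a list median of 0.23. At least 1.2-fold higher were 3 of the 8, beside 18.0% of all genes. That fold was reached by 0 on the lower side, beside 18.6%. The light chain B2m had signals of 3894 and 6107, a difference of 0.48, the heavy chain H2-K1 0.46 and the transcription factor Irf1 0.40. The peptide transporter Tap1 had 0.24, from a dim probe with signals of 33.4 and 44.6, where the spot SD is 0.26. Nlrc5, a regulator of class I genes, was on both arrays not well above background. Markers of leukocytes, in which the immunoproteasome is abundant, went the other way. Of 12 such markers 11 were measured and 10 of them lay below 0, beside 49.3% of all genes. Their median was -0.25, led by Csf1r at -0.61, H2-Aa at -0.59 and Cd68 at -0.44. Itgam had -0.25, with probes that ran from -0.51 to 0.12. Lyz2 was the exception at 0.40, from a dim probe with signals of 50.4 and 74.8, within 2 spot SD of the all-gene median. Ptprc, which marks leukocytes as a class, was on both arrays not well above background. The summed scaled signal of the measured leukocyte markers was 67.3 in control and 61.8 in N2ICD. Their part in the values of Psmb8, Psmb9 and Psmb10 was not tested.

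The 19S base, which unfolds substrates, had all 6 ATPases above the all-gene median, with a median of 0.15. Psmc6 (chromosome 14, 45968533 to 45968592) had the largest difference of any member. Its signal was 1015 in the control muscle and 1760 in the N2ICD muscle, a 1.54-fold higher level and a difference of 0.62, at a spot SD of 0.08 for its signal level and with 1 probe on the array. The other ATPases lay close together: Psmc4 had 0.16, Psmc2 0.15, Psmc1 0.14, Psmc3 0.12 and Psmc5 0.05. Psmc1, Psmc2 and Psmc3 were each read by 2 probes, which gave 0.20 and 0.09, 0.12 and 0.18, and 0.10 and 0.14. The probes of Psmc2 overlap on the transcript and are not separate readings of it. Psmd4, a ubiquitin receptor of the base, had signals of 26682 and 36503, a difference of 0.28, and the scaffolds Psmd1 and Psmd2 had 0.19 and 0.15.

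All 8 measured subunits of the 19S lid lay above the all-gene median, with a median of 0.16. At least 1.2-fold higher were 3 of them, beside 18.0% of all genes. Psmd8 (chromosome 7, 29961170 to 29962121, across a splice junction) had signals of 7157 and 10868, a difference of 0.43 or 1.35-fold. Psmd7 lay at 0.30. Psmd14, the metalloprotease that cuts ubiquitin chains off the substrate, had signals of 619 and 848 and a difference of 0.28. Psmd12 gave 0.20 and 0.16 in 2 probes, and Psmd13, Psmd6, Psmd3 and Psmd11 had 0.14, 0.09, 0.08 and 0.07. The last 3 were within 2 spot SD of the all-gene median. All Psmc and Psmd genes together, 21 with Psmc3ip and the base chaperones, had a median of 0.15.

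**Figure D3:**
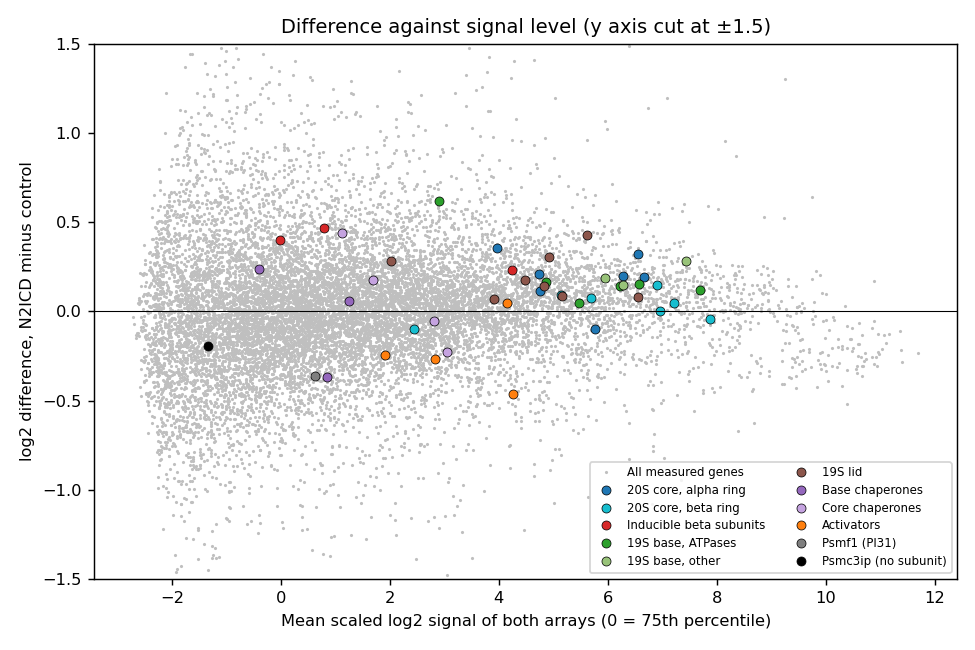
Log2 difference (N2ICD minus control, y axis, cut at 1.5 in either direction) against the mean scaled log2 signal of both arrays (x axis), for all 13674 measured genes (grey) and the proteasome genes by role (colours). Most core, base and lid genes lie in the bright part and above 0, inside the cloud of other genes of that level.

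The activators, which cap the core in place of the 19S particle, lay on the other side. Psme1, the alpha subunit of PA28 (chromosome 14, 56200194 to 56200253), was printed in 10 spots, whose signals ran from 3675 to 3938 in control and from 2956 to 3260 in N2ICD. The 2 ranges do not overlap, but spots of 1 probe on 1 array per group are not replicates of the muscles. How often the ranges of other repeated probes overlap was not counted. Its difference over the 9 spots without an outlier mark was -0.46, with an SD between spots of 0.04, a 1.38-fold lower level. Psme3, the nuclear activator PA28 gamma, had signals of 1314 and 1229 and a difference of -0.27. Psme4, the activator PA200, gave -0.32 and -0.17 in its 2 probes. On the spike-in scale, on which all genes stood 0.52 higher, Psme1 turned to 0.057, Psme3 to 0.25 and Psme4 to 0.28.

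For the beta subunit of PA28 the value depended on the probes. Both measured probes named Psme2b on the array also list the transcript of Psme2, a near-identical gene, among their accessions, so the 2 genes cannot be told apart there. They gave 0.06 and 0.03, with geometric mean signals of 2961 and 3450. The probe that lists Psme2b alone was on both arrays not well above background, and averaging it in turned the gene's value to -0.23. The 4 activator genes had a median of -0.26. More than 2 spot SD below the all-gene median were 3 of 4, beside 20.4% of all genes. Lower by 1.2-fold or more were 2 of 4, beside 18.6% of all genes. Psmf1, known as the inhibitor PI31, had signals of 295 and 258 and a difference of -0.36, or 0.16 when scaled by the spike-ins.

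The assembly chaperones did not share a direction. Of those for the core, Psmg4 had signals of 315 and 482, a difference of 0.44, and Psmg3, its partner in building the alpha ring, had 0.18. Of the partners Psmg1 and Psmg2, the first had -0.05, and Psmg2 had signals of 1515 and 1460 and a difference of -0.23. Of those for the base, Psmd9 had geometric mean signals of 346 and 303 and a difference of -0.37, the same in both of its probes (-0.37 and -0.36), or 0.16 when scaled by the spike-ins. Psmd5 had 0.06. Psmd10, known as gankyrin, cannot be given a direction. Its probe at transcript position 1392 (chromosome X, 137482968 to 137483027) had signals of 73.8 and 137, a difference of 0.72, while the probe at position 520, which crosses a splice junction, had 186 and 178, a difference of -0.24. Of the 11 members with 2 measured probes, Psmd10 was the 1 whose probes had opposite signs, and in 2, Psmd10 and Psmc1, they differed by more than 2 spot SD.

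Psmc3ip, the recombination cofactor, had signals of 71.3 and 70.3 and a difference of -0.19, within 2 SD of the spot noise of 0.26 at that level. Members in the brightest level group numbered 31, and 27 of them lay above the all-gene median. Of the 16 dimmer members 8 lay above it and 8 below. Reaching 1.2-fold were 5 on the higher and 3 on the lower side, or 31.2% and 18.8%. Of all genes in the dimmer level groups, 18.9% and 21.2% did so. The dimmer members include all 7 chaperones, Psmf1, Psme3, Psme4, Psmb8 and Psmb9, so level and role go together here.

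Promoters were read for the members because base, lid and alpha-ring genes lay on the same side. RefSeq windows of 300 bases (250 before to 50 after the transcript start, GRCm38.p6) were found for 41 members. They were searched on both strands for TGACNNNGC, core letters of the element bound by Nfe2l1 and its relatives, for CCAAT, the box bound by NF-Y, and for the interferon element, GAAA, any 2 bases and GAAA, bound by interferon regulatory factors. No match of 1 motif overlapped a match of another in the members' windows. Sequences just before the start are given 5′ to 3′ on the gene's strand, with matches to any of these in capitals: for Psmb5 (chr14:54617996-54618115, minus strand) and Psmb6 (chr11:70525237-70525356, plus strand), standard catalytic subunits near 0, for their inducible counterparts Psmb8 (chr17:34198045-34198194, plus strand) and Psmb9 (chr17:34187331-34187480, minus strand), for Psmc6 (chr14:45329574-45329823, plus strand), the highest member, and for Psmd9 (chr5:123227990-123228189, plus strand), one of the lowest.
Psmb5: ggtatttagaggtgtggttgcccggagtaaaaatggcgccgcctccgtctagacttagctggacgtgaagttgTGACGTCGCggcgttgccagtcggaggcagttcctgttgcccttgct
Psmb6: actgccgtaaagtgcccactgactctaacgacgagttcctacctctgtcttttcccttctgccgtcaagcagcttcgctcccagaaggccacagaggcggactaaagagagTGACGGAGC
Psmb8: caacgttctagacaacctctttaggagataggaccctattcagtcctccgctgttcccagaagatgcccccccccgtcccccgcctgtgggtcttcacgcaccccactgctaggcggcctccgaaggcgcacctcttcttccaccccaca
Psmb9: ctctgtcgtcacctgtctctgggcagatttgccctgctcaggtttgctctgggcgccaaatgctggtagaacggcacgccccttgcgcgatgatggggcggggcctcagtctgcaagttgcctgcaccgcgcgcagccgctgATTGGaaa
Psmc6: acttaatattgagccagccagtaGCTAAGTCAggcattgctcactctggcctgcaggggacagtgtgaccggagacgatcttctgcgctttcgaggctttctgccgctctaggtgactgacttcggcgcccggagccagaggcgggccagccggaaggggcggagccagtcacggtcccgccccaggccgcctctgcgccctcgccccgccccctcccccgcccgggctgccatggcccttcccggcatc
Psmd9: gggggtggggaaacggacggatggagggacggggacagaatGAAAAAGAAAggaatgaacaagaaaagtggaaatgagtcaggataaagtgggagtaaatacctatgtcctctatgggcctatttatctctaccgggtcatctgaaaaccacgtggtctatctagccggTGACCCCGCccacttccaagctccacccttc

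The capitals mark TGACNNNGC in Psmb5, Psmb6, Psmc6 (on the reverse strand) and Psmd9, CCAAT on the reverse strand in Psmb9, and the interferon element in Psmd9. No such match occurred in the stretch shown for Psmb8. Of the 25 assembled subunits with a window, 4 held TGACNNNGC, or 16%, beside 14% of 27025 genes, and 10 held CCAAT, or 40%, beside 41.1%. The interferon element was in 2 of the 25, or 8%, and in 0 of the 3 inducible subunits, beside 3.99% of all genes. Of all 41 members 5 held it, or 12.2%. Those members were Psmg4 at 0.44, Psmd4 at 0.28, Psmb3 at -0.0003, Psmd9 at -0.37 and Psme1 at -0.46. The 4 subunits with TGACNNNGC had a median difference of 0.11 and the 21 without it 0.15, and the values of these 2 sets overlapped. TGACNNNGC and CCAAT were about as frequent in the subunits as in all promoters, and a match is a description of the sequence only.

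**Figure D4:**
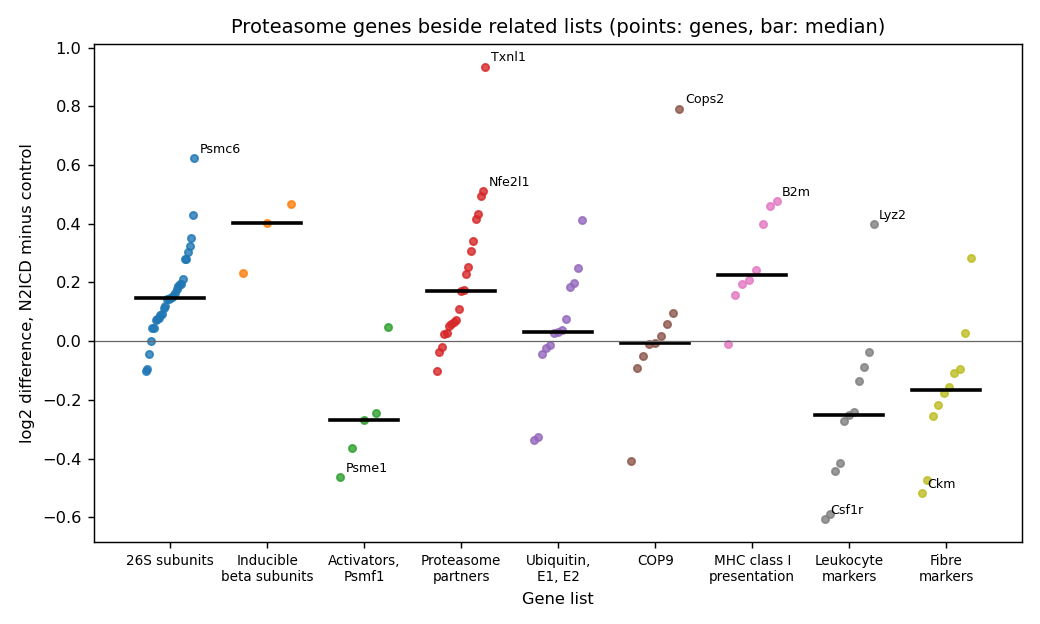
Log2 difference (N2ICD minus control, y axis) of the genes in each list (x axis). Points are genes in ascending order and bars are list medians, at 0.15 for the 26S subunits, 0.40 for the inducible beta subunits, 0.17 for proteasome partners and -0.25 for leukocyte markers.

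Genes that bind, build or regulate the proteasome without being named as subunits were mostly on the higher side. Of 21 measured, 18 lay above the all-gene median, with a median of 0.17. At least 1.2-fold higher were 7, or 33.3%, beside 18.0% of all genes. That fold was reached by 0 on the lower side, beside 18.6%. Nfe2l1, the transcription factor that drives subunit genes when proteasome activity is short, had signals of 543 and 872, a difference of 0.51 or 1.42-fold. Ngly1, which strips the sugars of Nfe2l1, had 0.49, from a dim probe with signals of 80.6 and 128. The spot SD at that level is 0.26. Ddi2, the protease that cleaves Nfe2l1, had 0.42 (0.39 in the lower of its 2 probes). Nfe2l2, a relative of Nfe2l1, had 0.07. Not all genes that act around Nfe2l1 or the proteasome were raised as much, since Vcp had 0.02, Ufd1 0.06 and Nploc4 0.25. Pomp, which matures the core, had signals of 1233 and 1628 and a difference of 0.23, and Sem1, a small lid subunit outside the symbol rule, had 0.17. The deubiquitinases of the 19S particle, Usp14 and Uchl5, had 0.34 (0.10 and 0.59 in 2 probes) and 0.31. The largest value, 0.94 for the proteasome-bound thioredoxin Txnl1, came from a dim probe with signals of 32.8 and 70.6.

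Ubiquitin supply and the COP9 complex had medians nearer to that of all genes. Of 13 measured genes for ubiquitin and its general E1 and E2 enzymes, 8 lay above the all-gene median, with a median of 0.03. Among them Ubb, a polyubiquitin gene, had -0.02. The E2 enzyme Ube2r2 had 0.41 and Ube2g1 -0.33. The COP9 signalosome, a complex built like the proteasome lid from related subunits, had a median of -0.01 over 9 genes, with 4 above the all-gene median, although Cops2 stood at 0.79 (0.45 and 1.13 in 2 probes) and Cops7b at -0.41. Whether these lists differ from the subunits beyond the spread between animals was not tested, since there is 1 array per group.

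Fibre markers fitted the labelled tissue. All 10 were well above background on both arrays, with control signals up to 484181 for the fast troponin Tnni2. Below 0 lay 8 of 10, beside 49.3% of all genes. Their median was -0.17, led by the creatine kinase Ckm at -0.52 and the light chain Mylpf at -0.47. The intermediate filament gene Des had 0.28. Endothelial markers had a median of -0.32 over 8 genes and fibroblast markers -0.27 over 6. Below 0 were 7 of 8 and 4 of 6, beside the same 49.3% of all genes. They ran from -0.59 for Emcn to 0.12 for Pecam1, and from -0.41 for Col1a1 to 0.11 for Pdgfra. These lists went against the subunits and with the activators, and their part in those values was not tested.

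**Figure D5:**
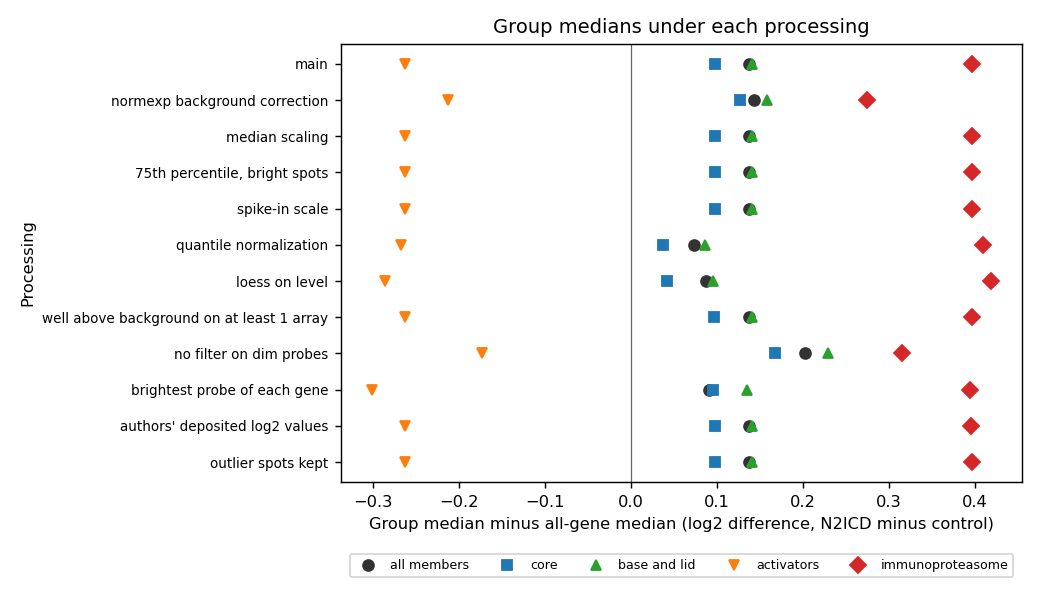
Median log2 difference of each group minus the all-gene median (x axis) under each way of processing (y axis). Base and lid stands for all Psmc and Psmd genes, with Psmc3ip and the base chaperones. Activators stay left of 0, between -0.30 and -0.17, and the immunoproteasome genes right of it, between 0.27 and 0.42, in every setting shown. The 3 settings that shift all genes alike (median, spike-in and bright-spot percentile scaling) cannot move these values. The authors' deposited values were nearly such a shift as well.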

How the data were processed

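Array and animal labels gave the 2 groups. Each scanner file lists, per the file headers, intensity values for every spot, which the authors extracted with Agilent Feature Extraction (version 10.10.1.1), with background subtracted and the array detrended but no normalization between arrays. The same headers place probes on mm9. A second, deposited table by the authors gives a fold (ratio) without sign, an intensity and a normalized log2 value, and the steps behind it are not given in the sources used here.

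Here, each array's 75th percentile, over its 59305 spots other than controls, was subtracted from the log2 processed signals. Control spots and 215 spots with an outlier mark were left out, none was saturated, and spots of 1 probe were averaged. Probes well above background on both arrays were averaged into genes. The accession of a spot matched 1 reference symbol (GRCm38.p6) for 31146 spots, and for all 49 proteasome genes it gave the name in the files. Without replicates nothing was tested. Differences were instead counted at 1.2-fold and 2-fold, against the all-gene median and against the spot noise. Named with values in both arrays were the catalytic subunits and their counterparts, the activators, Psmf1 and the 4 largest other differences in each direction, and the other members are given by role. The promoters printed were chosen after the values were seen. The symbol rule uses no values, but the gene family and the lists were chosen with earlier results of these data known. The averaging of spots and probes into genes was tested on simulated data with known changes. The scaling, the filters and the counts against spot noise were not tested in this way. Alternatives changed the background correction, scaling, filter and choice of probe. Analyses ran in R 4.3.3 with limma 3.58.1 (normexp, quantile, loess) and in Python 3.11.15 (pandas 2.3.3, numpy 2.4.6). Some genes of the related lists are not reported here by name.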

Additional observations from a re-analysis of the deposited data

How the results depend on the processing

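The values were recomputed under 11 other settings. These were normexp (offset 50), median, spike-in (7 probes) and quantile scaling, loess on level, the percentile taken over bright spots, a looser filter and none, only the brightest probe per gene, the authors' deposited log2 values, and outlier spots kept. Leaving out Psmc3ip, or Psme2b from the activators, was added after the data were seen. Over these, group medians minus the all-gene median ran from 0.07 to 0.20 for all members, 0.04 to 0.17 for the core, 0.09 to 0.23 for base and lid, -0.30 to -0.17 for the activators and 0.27 to 0.42 for the immunoproteasome, so none changed direction. Base and lid here stands for all Psmc and Psmd genes, with Psmc3ip and the base chaperones. The median, spike-in and bright-spot scalings shift all genes alike and cannot move these medians. The authors' deposited values were nearly such a shift as well, and are no separate check. With them the all-gene median went from 0.005 to 0.020, Psma1 from 0.114 to 0.129 and Psmc6 from 0.622 to 0.637. Only the remaining settings bear on these medians. The count at least 1.2-fold higher was 10, 14 after median scaling, 9 after normexp, loess or no filter, 6 after quantile normalization (the cause was not tested) and 43 on the spike-in scale, where the count at least 1.2-fold lower was 0. On that scale Psmd9 turned to 0.16, Psme1 to 0.057, Psme3 to 0.25 and Psmf1 to 0.16, because all genes moved up by 0.52. Psmd10 was -0.24 with the brightest probe, and Psme2b -0.23 with no filter. No paired analysis was possible because each group holds 1 sample, and for the same reason no replicate could be left out. The number of arrays limits the precision, and dim probes have more spot noise.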

Other observations

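Some probes resemble proteasome genes by their description but carry other symbols. A cDNA described as like Psmd11, a lid subunit, gave 2273 in the control and 2647 in the N2ICD muscle and a log2 difference of 0.05, near the 0.07 of Psmd11 itself. A predicted gene described as like the chaperone Psmg2 had signals of 141 and 150 and a difference of -0.08, beside -0.23 for Psmg2. A transcript described as like Psma6 was not well above background.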
